A study of Mus musculus with 4 samples.

Results

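The complement components C1qa, C1qb, C1qc, C4b, C3 and Cfb, the complement regulator Serping1 and the anaphylatoxin receptors C3ar1 and C5ar1 were followed in single-cell RNA-seq of MC38 tumors. They are 9 of the 32285 genes in the count tables and were taken by symbol. Their levels were compared across macrophage-like, stromal-like, tumor-like and neutrophil-like cells of 4 libraries. MC38 is a mouse colon adenocarcinoma line, grown here under the skin of C57BL/6 mice. The tumors carried either wild-type RAC1 (WT) or the RAC1 A159V substitution (A159V), and the mice received either an IgG control antibody or an anti-PD1 antibody, so that each genotype had an IgG and an anti-PD1 group. Values set side by side below follow 1 order, the WT tumors first (IgG, then anti-PD1) and the A159V tumors after them (IgG, then anti-PD1). Tumors of all groups were taken on the same day after implantation. The A159V line was a homozygous knock-in clone grown from a single edited cell, so that effects of the mutation and of the clone cannot be told apart. CD45+ and CD45- cells were separated on beads and mixed again at a set ratio before loading, so that the numbers of immune, stromal and tumor cells do not give their proportions in the tumor. The number of tumors behind each library is not given in the sources used here. The base change in Rac1 cannot be read from these counts, and the genotypes rest on the labels.

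Complement is a cascade of plasma and tissue proteins that tags cells and debris and calls in phagocytes. C1q, built from A, B and C chains, starts the classical pathway by binding antibody or altered surfaces, after which the attached proteases cleave C4 and C2. C3 is the central protein on which all routes converge, and factor B amplifies its cleavage in the alternative pathway. The C1 inhibitor, encoded by Serping1, shuts off the C1 proteases, and the small fragments C3a and C5a act on myeloid cells through the receptors C3aR1 and C5aR1. The liver makes most circulating complement, while macrophages are a main source of C1q and fibroblasts make several other components locally.

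All 9 genes lie on the minus strand of the GRCm38 genome and are protein-coding in GENCODE M21. The 3 C1q genes lie side by side on chromosome 4, with C1qb at 136880129-136886187, C1qc at 136889804-136893065 and C1qa at 136895917-136898803. C4b (34728380-34743882), Cfb (34856374-34862518) and C3 (57203970-57228136) are on chromosome 17, Serping1 (84765387-84775444) is on chromosome 2, C3ar1 (122847138-122856161) is on chromosome 6 and C5ar1 (16246743-16259540) is on chromosome 7. The sequences before the starts of C1qb, C1qc and C3ar1 are shown because these genes were highest in macrophage-like cells. That of C3, which was highest in stromal-like cells and also read from macrophage-like cells, is added to these sequences. They come from RefSeq (GRCm38.p6), run 5′ to 3′ along the minus strand and cover chr4:136886201-136886450 for C1qb, chr4:136893066-136893164 for C1qc, chr6:122856162-122856407 for C3ar1 and chr17:57228137-57228386 for C3. Capitals mark matches on either strand to AGGAAG, a core of sites for ETS factors such as PU.1, to TGCTGA, a Maf half-site, and to TTGCNNAA, a C/EBP core.
C1qb: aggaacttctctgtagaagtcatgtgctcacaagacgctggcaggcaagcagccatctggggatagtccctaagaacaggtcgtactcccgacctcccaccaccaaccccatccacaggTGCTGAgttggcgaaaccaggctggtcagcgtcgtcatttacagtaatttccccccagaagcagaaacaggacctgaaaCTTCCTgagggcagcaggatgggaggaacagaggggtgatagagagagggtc
C1qc: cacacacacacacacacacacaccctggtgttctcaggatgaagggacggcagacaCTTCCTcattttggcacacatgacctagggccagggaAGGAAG
C3ar1: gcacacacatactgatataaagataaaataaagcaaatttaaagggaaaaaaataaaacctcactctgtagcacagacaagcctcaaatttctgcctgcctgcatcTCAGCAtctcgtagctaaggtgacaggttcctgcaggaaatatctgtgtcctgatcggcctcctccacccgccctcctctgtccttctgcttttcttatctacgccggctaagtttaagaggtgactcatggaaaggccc
C3: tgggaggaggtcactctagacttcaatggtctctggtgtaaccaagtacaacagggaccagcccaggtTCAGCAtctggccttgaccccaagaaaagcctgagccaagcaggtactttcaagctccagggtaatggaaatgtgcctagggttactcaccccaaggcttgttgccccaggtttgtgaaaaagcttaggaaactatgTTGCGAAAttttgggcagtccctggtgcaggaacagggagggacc
C1qb held 1 match to AGGAAG and 1 to TGCTGA, C1qc held 2 to AGGAAG, C3ar1 held 1 to TGCTGA, and C3 held 1 to TGCTGA and 1 to TTGCNNAA. Matches to these letters are common. Among 32851 mouse promoters, 29.5% held AGGAAG, 16.1% TGCTGA and 9.56% TTGCNNAA in a window of 250 bases, and 12.01% held AGGAAG in a window of 99 bases, the length of the C1qc sequence. An NF-kB-like run (GGGA, any 4 bases, CC) was found 3 times in the C3 window. In the C1qb window it had 2 matches, which overlapped on opposite strands at 1 place. Of all windows of 250 bases, 17.6% held it. Neither TTCNNNGAA nor GAAA, any 2 bases and GAAA, letters of interferon-responsive elements, was in any of these windows. No sequence is shown for the other members.

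The libraries held 7430 to 9311 barcodes and 54402632 to 125227747 unique molecular identifiers (UMIs, each a counted RNA molecule), and 6466 to 8248 cells per library were analyzed after barcodes with 500 or fewer genes and predicted doublets were left out. Pairs of libraries shared 13 to 22 barcode sequences. The cells fell into 21 clusters, found without the complement genes, and clusters were named as classes from marker lists. In library order, there were 3020, 1940, 2851 and 3776 macrophage-like cells. The stromal-like class held 138, 1610, 178 and 164 cells, and the neutrophil-like class held 95, 564, 106 and 217. The tumor-like class held 2028, 4, 2806 and 2095 cells, and its name rests on 3 of 9 markers, Rhox5 (953 to 1101 CPM), Prl2c2 and Prl2c3, while Krt8, Krt18, Krt19, Krt7, Epcam and Cdh1 were each at or below 0.775 CPM. CPM is the count of a gene's UMIs per 1000000 UMIs of the class in that library.

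The WT anti-PD1 library stood apart from the other 3. It had the lowest UMI total, 4 tumor-like cells, most of the stromal-like cells, and 84.6% of its macrophage-like cells in a single cluster that held 3.40 to 10.3% of those cells elsewhere. Summed stromal markers were 715 CPM in its macrophage-like cells against 46.4 to 82.8 CPM in the other libraries, and 681 CPM in its T-like cells against 40.9 to 80.3 CPM. One library was made per group. No test of the conditions was therefore possible, and every difference given below compares libraries. Intervals are 95% intervals that cover counting error only, and a gene was called changed where it differed at least 2-fold and reached 20 CPM in at least 1 of the libraries compared. The WT anti-PD1 and A159V IgG libraries were both compared with WT IgG, and A159V IgG was also the control for A159V anti-PD1, so these comparisons share libraries.

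Each member had a home class, as shown in the plot of levels by class. The 3 C1q chains and C3ar1 were read almost wholly from macrophage-like cells, Serping1 almost wholly from stromal-like cells, C4b mostly from stromal-like cells (77.4 to 98.5% of its UMIs), C3 and Cfb from both, and C5ar1 from neutrophil-like and macrophage-like cells. Tumor-like cells had every member below 20 CPM in the 3 libraries that held enough of them.

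**Figure D1:**
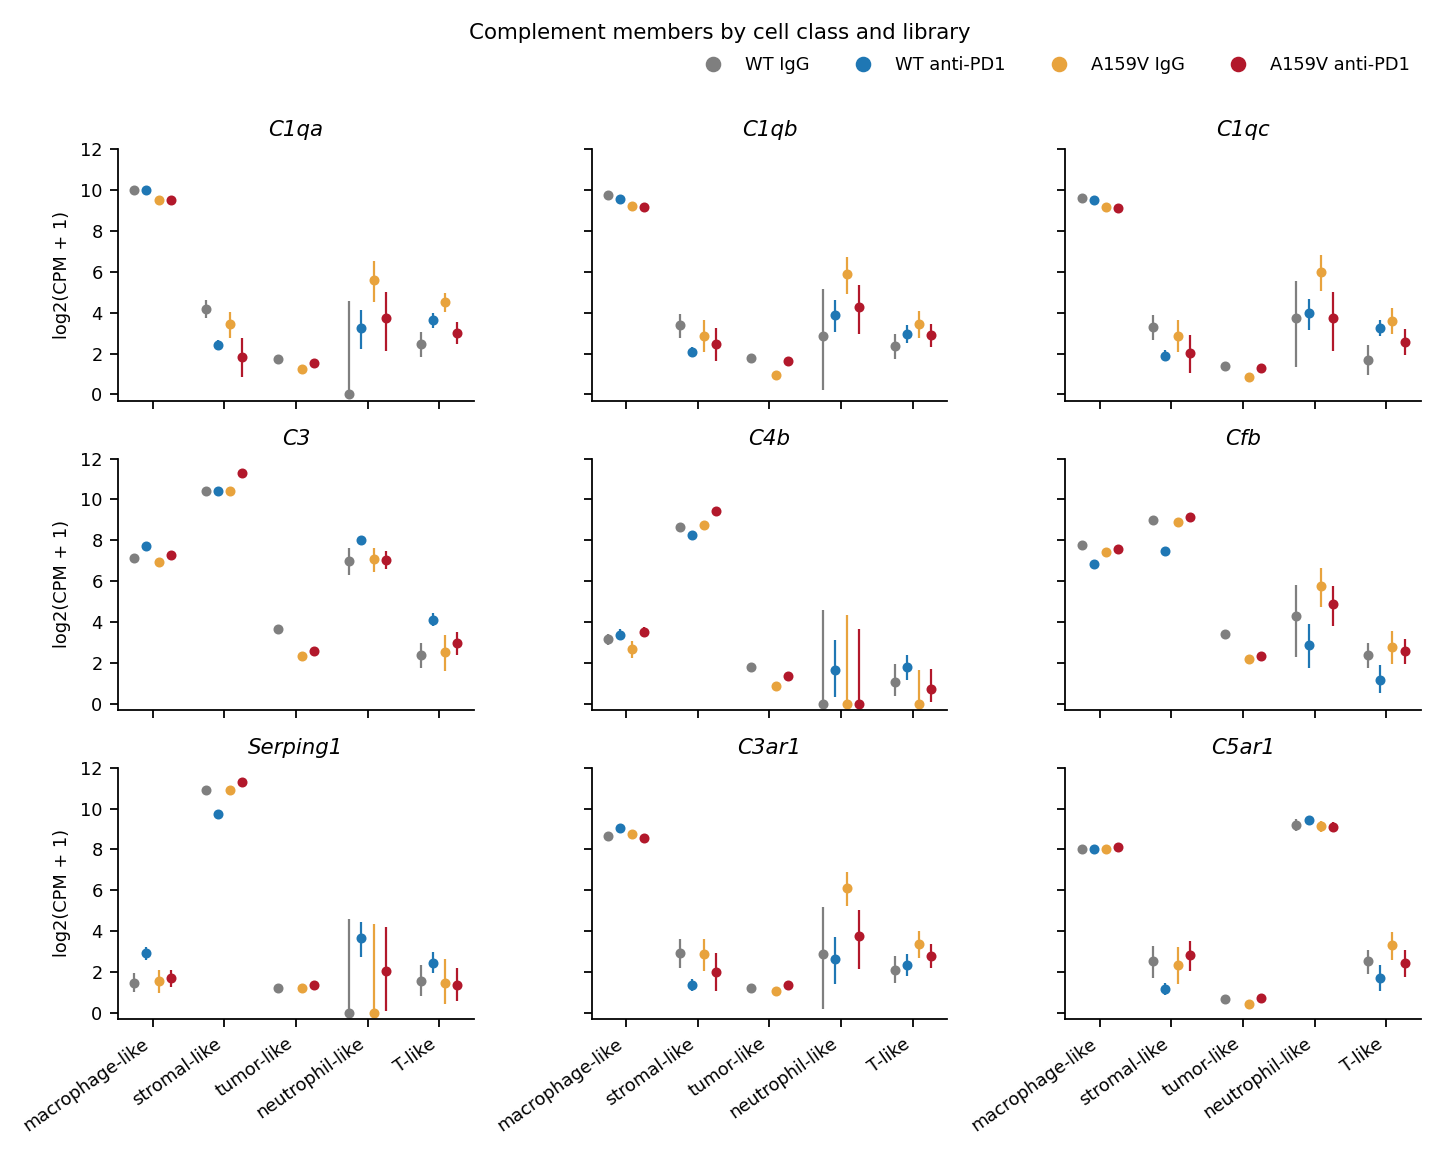
Levels of the 9 complement genes as log2(CPM + 1) in macrophage-like, stromal-like, tumor-like, neutrophil-like and T-like cells, each point 1 library (by color) with its 95% counting interval. C1qa, C1qb, C1qc and C3ar1 peak in macrophage-like cells, C3, C4b, Cfb and Serping1 in stromal-like cells and C5ar1 in neutrophil-like cells; WT anti-PD1 has no tumor-like points, since it held 4 such cells.

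C1q, the recognition molecule of the classical pathway, was read almost wholly from macrophage-like cells in all 4 libraries. Its summed level under IgG, over the whole class, was lower in A159V than in WT tumors. Of all UMIs of C1qa, C1qb and C1qc, macrophage-like cells held 97.1% and 97.5% in the IgG and anti-PD1 libraries of WT tumors and 95.2% and 96.6% in those of A159V tumors. Their summed level in these cells was 2666 CPM (2635 to 2699) with IgG and 2499 CPM (2467 to 2531) with anti-PD1 in WT tumors, and 1904 CPM (1870.1 to 1938) with IgG and 1861 CPM (1836 to 1886) with anti-PD1 in A159V tumors. Both WT libraries were thus above both A159V libraries, and their counting intervals did not overlap. In T-like cells, which are not known to make C1q and serve as the background of free RNA, the sum was 10.9, 26.8, 43.1 and 18.7 CPM in the same order.

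The A159V IgG over WT IgG log2 ratio of summed C1q in macrophage-like cells was -0.49 (-0.52 to -0.45), a fold of 0.714. The chains moved alike, with log2 ratios of -0.47 for C1qa, -0.52 for C1qb and -0.46 for C1qc. C1qa was 1013, 1019.7, 729 and 723 CPM in library order, C1qb was 868, 754, 603 and 579 CPM, and C1qc was 785, 725, 571 and 558 CPM. None of these differences reached 2-fold. Of the 9 members, 7 passed 20 CPM in this comparison and 0 of the 7 were called, beside 0.366% of 6014 tested genes that were at least 2-fold higher and 0.416% that were at least 2-fold lower. The median log2 ratio of the 7 members was -0.37, and that of all tested genes was 0.0068.

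Over the whole class, the anti-PD1 comparisons gave smaller C1q ratios than the genotype. This order did not hold with common cluster weights or with each cell weighing the same (values below). WT anti-PD1 over WT IgG was -0.09 (-0.12 to -0.07) on the log2 scale, and A159V anti-PD1 over A159V IgG was -0.03 (-0.065 to -0.00087). In WT, 0 of the 7 members tested in macrophage-like cells were called, beside 7.59% of 6418 genes called higher and 6.53% called lower. In A159V, 0 of 7 were called, beside 0.679% of 6042 genes called higher and 0.182% called lower.

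The chain make-up of C1q was similar in the 4 libraries. C1qa gave 38.0, 40.8, 38.3 and 38.9% of the C1q UMIs of macrophage-like cells in library order, and C1qb gave 32.6, 30.2, 31.7 and 31.1%. At a depth cut to 1500 UMIs per cell, with 600, 405, 850 and 757 shallower cells dropped, all 3 chains were seen together in 20.04, 26.7, 18.4 and 15.8% of macrophage-like cells. In a separate random draw to the same depth, at least 1 C1q UMI was seen in 38.1, 64.8, 37.0 and 34.9% of macrophage-like cells, against 1.68, 3.90, 2.28 and 2.29% of T-like cells, and in 38.0, 67.6, 36.3 and 35.3% of macrophage-like cells without thinning. The median depth was 2001 to 3679.5 UMIs in macrophage-like and 1647.5 to 3075 UMIs in T-like cells. The high share in WT anti-PD1 went against its CPM, which was below that of WT IgG, so no order is read from it.

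C1q differed far more between the 5 macrophage-like clusters than between libraries. Cluster 2, which was led by C1q, Ms4a7 and Cd72, had 5945, 4041, 4388 and 4579 CPM of summed C1q in library order. Cluster 5, rich in Mrc1, the mannose receptor, and Arg1, arginase, had 4102, 2553, 5205 and 4196 CPM. Cluster 8, rich in Spp1, which encodes osteopontin, and Arg1, had 1061, 642, 1348 and 1045 CPM. C1q was lower in the other clusters, with 347, 779, 325 and 352 CPM in cluster 1, which expressed Ly6c2 and Plac8. Cluster 4, which also expressed Plac8, Ly6c2, Ccr2 and Chil3, had 99.1, 73.3, 165 and 151 CPM. Ly6c2 was 2542 and 1236 CPM in clusters 1 and 4, against at most 704 CPM in clusters 2, 5 and 8. Cluster 1 made up 32.2, 2.11, 26.8 and 26.7% of macrophage-like cells in library order, and cluster 4 made up 22.1, 4.74, 23.3 and 25.2%. Values of the whole class therefore mix clusters of unlike profile in unlike parts. The order of cluster 2 and cluster 5 above cluster 8, cluster 8 above cluster 1 and cluster 1 above cluster 4 held in 3 of the 4 libraries, and in WT anti-PD1, where cluster 1 held 41 cells, clusters 1 and 8 changed places.

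The lower C1q of A159V IgG was not shared by the clusters. A159V IgG over WT IgG was -0.44 on the log2 scale in cluster 2 and -0.09 in cluster 1, but 0.34 in cluster 5, 0.35 in cluster 8 and 0.73 in cluster 4. When each cluster was given, in every library, its weight over all 4 libraries, an alternative added after the data were seen, the ratio was 0.0035, and with each cell weighing the same it was -0.23. In WT, anti-PD1 over IgG was -0.56 in cluster 2, -0.68 in cluster 5, -0.72 in cluster 8 and -0.43 (-1.15 to 0.28) in cluster 4, cluster 1 was too small to compare, and the common cluster weights gave -0.52. In that library cluster 5 held 84.6% of the macrophage-like cells and cluster 2 held 5.72%, against 5.33% and 31.1% in WT IgG. In A159V, anti-PD1 over IgG was 0.06 in cluster 2, 0.12 in cluster 1, -0.13 in cluster 4, -0.31 in cluster 5 and -0.37 in cluster 8. Cluster 5 made up 3.40% of these cells with IgG and 10.3% with anti-PD1.

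**Figure D2:**
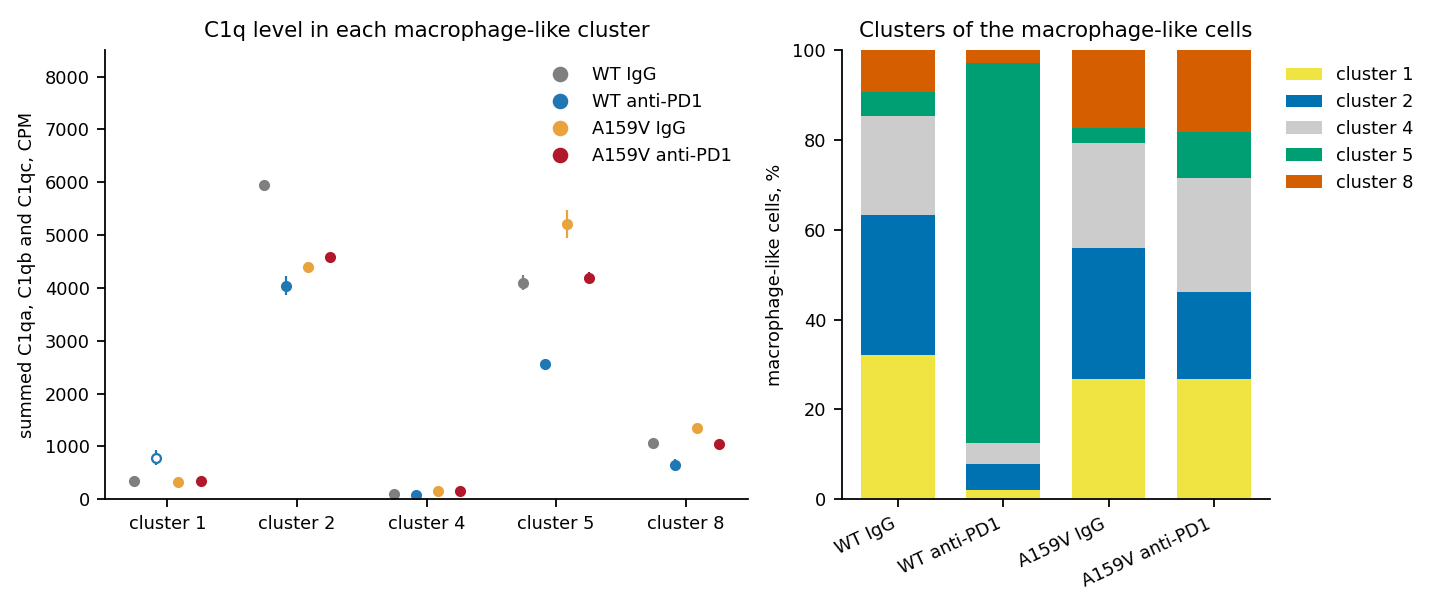
Summed C1qa, C1qb and C1qc in CPM in the 5 macrophage-like clusters of each library, with 95% counting intervals, beside the share in percent of macrophage-like cells in each cluster (stacked bars). Open points stand for fewer than 50 cells. Clusters 2 and 5 carry the highest levels in every library, and cluster 5 holds 84.6% of the cells in WT anti-PD1.

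Outside macrophage-like cells, dendritic-like cells had 171, 38.5, 109 and 96.0 CPM of summed C1q in library order, and neutrophil-like cells had 18.9, 36.7, 169 and 43.5 CPM on 3, 35, 32 and 14 UMIs. Stromal-like cells had 35.9, 10.4, 22.5 and 10.1 CPM, and tumor-like cells had 6.42 CPM in WT IgG and 3.09 and 5.50 CPM in the A159V libraries. By CPM, tumor-like cells were below the T-like cells of the same library in all 3 cases and stromal-like cells in 3 of 4. In WT IgG the stromal-like level of 35.9 CPM was above the 10.9 CPM of T-like cells. Tumor-like and stromal-like cells were deeper per cell than T-like cells, so this order does not show how much of their C1q was free RNA.

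Serping1, the inhibitor of the C1 proteases, was a stromal gene and was lower in the stromal-like cells of WT anti-PD1. These cells held 96.1 to 98.3% of its UMIs. Its level in them was 1946 CPM (1887 to 2006) with IgG and 856 CPM (845 to 868) with anti-PD1 in WT tumors, and 1891 CPM (1827 to 1957) with IgG and 2537 CPM (2467 to 2608) with anti-PD1 in A159V tumors. The WT anti-PD1 library was thus lowest, A159V anti-PD1 was highest, and the IgG libraries lay between with intervals that overlapped. WT anti-PD1 over WT IgG was -1.18 (-1.23 to -1.14) on the log2 scale, A159V anti-PD1 over A159V IgG was 0.42, and A159V IgG over WT IgG was -0.04. Macrophage-like cells had 1.79 to 6.60 CPM.

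Serping1 was lower in both stromal-like clusters of WT anti-PD1. In cluster 11, led by the fibroblast genes Dpt, Clec3b and Pi16, the levels were 2197, 1184, 2613 and 2614 CPM in library order, and in cluster 15, which expressed Tnc, Postn and Acta2, they were 1728, 505, 1328 and 2198 CPM. The WT anti-PD1 over WT IgG log2 ratio was -0.89 in cluster 11 and -1.77 in cluster 15. Cluster 15 held 65, 736, 80 and 28 cells in the 4 libraries and 81.0% of its cells came from WT anti-PD1.

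Cfb, which encodes factor B of the alternative pathway, was also lower in stromal-like cells of WT anti-PD1. Its level was 515 CPM (485 to 547) with IgG and 178 CPM (173 to 184) with anti-PD1 in WT tumors, and 468 CPM (436 to 501) with IgG and 563 CPM (530.1 to 597) with anti-PD1 in A159V tumors. The 3 other libraries were all above 2 times the WT anti-PD1 level. WT anti-PD1 over WT IgG was -1.53 (-1.62 to -1.43) on the log2 scale, with -1.22 in cluster 11 and -2.05 in cluster 15. A159V anti-PD1 over A159V IgG was 0.26 and A159V IgG over WT IgG was -0.14. In A159V IgG and A159V anti-PD1, Cfb was 524 and 570 CPM in cluster 11 and 425 and 531 CPM in cluster 15.

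Of the 4 members tested in stromal-like cells of WT anti-PD1 against WT IgG, Serping1 and Cfb were called lower and 0 were called higher, beside 5.28% of 6992 genes called lower and 4% called higher. The median log2 ratio was -0.78 over the 4 members and 0.07 over all tested genes. Without cluster 15, 1 of the 4 was called, and the share of all genes called in that setting was not computed. Both calls depended on which cells were named stromal-like. When each library was clustered on its own, the ratio of Cfb was 1.19 and that of Serping1 was 1.98, and a gate on marker genes gave 0.47 for Serping1. Under the first of these, 678 of the 816 WT IgG cells named stromal-like were tumor-like cells of the joint clusters, and their class had 1682 CPM of Col1a1, a collagen gene, against 23983 CPM in WT anti-PD1. Under the gate, 166 of 301 WT IgG cells were such tumor-like cells, with 4594 CPM of Col1a1.

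C4b, which encodes complement C4, was read mostly from the same cells and, over the whole class, was highest in A159V anti-PD1. Its near-identical copy C4a can share its reads, so its level is uncertain, and C4a itself reached at most 1.42 CPM. C4b in stromal-like cells was 397 CPM (370.1 to 424) with IgG and 304 CPM (298 to 311) with anti-PD1 in WT tumors, and 429 CPM (399 to 461) with IgG and 679.8 CPM (644 to 717) with anti-PD1 in A159V tumors. The A159V anti-PD1 library lay above the other 3, and the IgG libraries overlapped in their intervals. The log2 ratios were 0.66 for A159V anti-PD1 over A159V IgG, -0.38 for WT anti-PD1 over WT IgG and 0.11 for A159V IgG over WT IgG.

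C4b also differed between the stromal-like clusters. Cluster 11 had 601, 527, 757 and 787 CPM of C4b in library order, and cluster 15 had 219, 65.5, 173 and 211 CPM. In WT anti-PD1, C4b was lower than in WT IgG by a log2 ratio of -1.73 in cluster 15. The intervals of A159V IgG and A159V anti-PD1 overlapped in cluster 11. In cluster 15, where it held 28 cells, A159V anti-PD1 was not the highest library. Cluster 11 made up 52.9, 54.3, 55.1 and 82.9% of stromal-like cells in the 4 libraries. Macrophage-like cells had 5.39 to 10.5 CPM of C4b.

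C3, the central component, was a leading gene of stromal cluster 11 and was highest in A159V anti-PD1. Stromal-like cells held 56.7, 93.5, 66.8 and 67.5% of its UMIs in library order. Their level was 1366 CPM (1317 to 1417) with IgG and 1371 CPM (1357 to 1386) with anti-PD1 in WT tumors, and 1373 CPM (1319 to 1429) with IgG and 2493 CPM (2424 to 2564) with anti-PD1 in A159V tumors. The first 3 libraries overlapped and A159V anti-PD1 lay above them. The log2 ratio of A159V anti-PD1 over A159V IgG was 0.86 (0.79 to 0.93), and those of A159V IgG and WT anti-PD1 over WT IgG were both 0.01.

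Within the clusters the C3 difference was smaller. Cluster 11 had 2282, 2287, 2521 and 2877 CPM of C3 in library order, and cluster 15 had 572, 389.8, 479 and 810.3 CPM. A159V anti-PD1 over A159V IgG was 0.19 on the log2 scale in cluster 11, and 0.29 in the class with common cluster weights. In A159V anti-PD1 cluster 15 held 28 cells. Of the 4 members tested in stromal-like cells of A159V anti-PD1 against A159V IgG, 0 were called, beside 2.37% of 6951 genes called higher and 3.25% called lower, with a median log2 ratio of 0.54 over the members and 0.005 over all tested genes. For A159V IgG against WT IgG, 0 of 4 were called, beside 0.896% of 6805 genes called higher and 0.97% called lower. When each library was clustered on its own or with the gate, 4 were called. These settings brought in the tumor-like cells of WT IgG named above, and their share of all genes called was not computed.

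**Figure D3:**
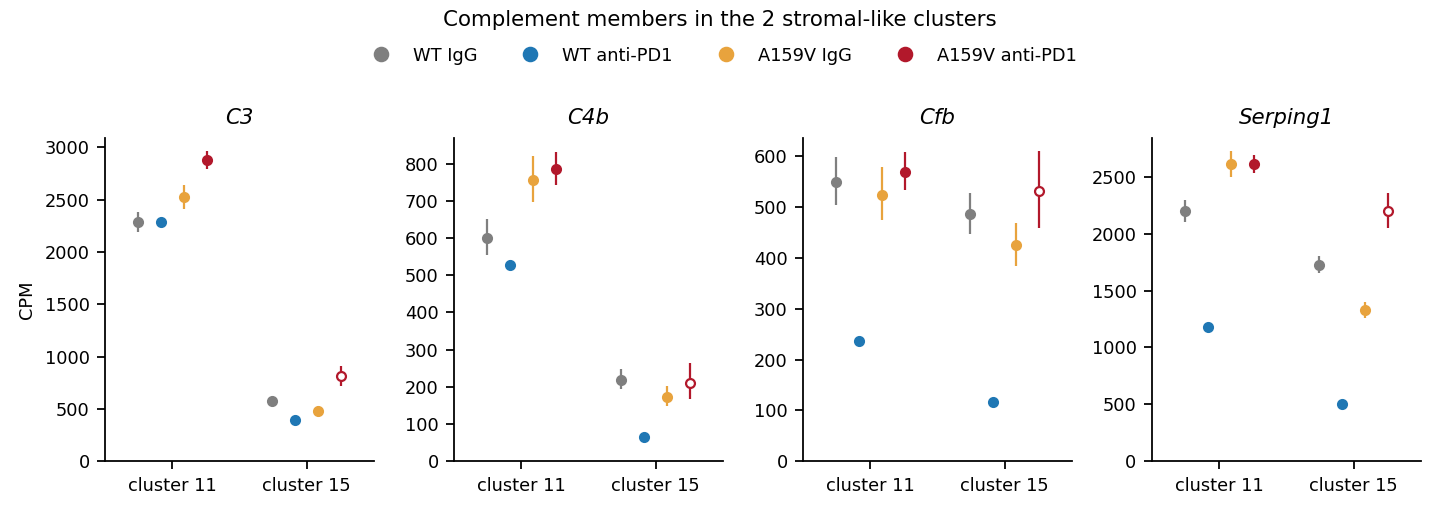
C3, C4b, Cfb and Serping1 in CPM in stromal-like clusters 11 and 15 of each library, with 95% counting intervals (open points, fewer than 50 cells). Serping1 and Cfb are lowest in WT anti-PD1 in both clusters, and C3 and C4b are higher in cluster 11 than in cluster 15 in every library.

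Macrophage-like cells also expressed C3 and Cfb, and in WT anti-PD1 these differed from WT IgG in opposite directions. C3 in macrophage-like cells was 139.6 CPM (132 to 147) with IgG and 210.2 CPM (201 to 219.8) with anti-PD1 in WT tumors, and 123 CPM (114 to 132) with IgG and 153 CPM (146 to 160.3) with anti-PD1 in A159V tumors, against 4.18 to 16.4 CPM in T-like cells. WT anti-PD1 was highest and A159V IgG lowest. WT anti-PD1 over WT IgG was 0.59 (0.49 to 0.69) on the log2 scale, and it was 0.97 in cells without UMIs of another class and 1.02 with common cluster weights. In each of the 5 clusters C3 was higher with anti-PD1 than with IgG in WT tumors, for example 206.8 against 90.6 CPM in cluster 5 and 162.6 against 110.1 CPM in cluster 2. The summed stromal markers in these cells were 715 CPM in WT anti-PD1 and 53.6 CPM in WT IgG, and their part in the C3 difference was not tested beyond the value above without UMIs of another class.

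Cfb in macrophage-like cells was 220.2 CPM (211 to 229.6) with IgG and 115 CPM (108 to 122) with anti-PD1 in WT tumors, and 170.5 CPM (160.4 to 181) with IgG and 187 CPM (179 to 195) with anti-PD1 in A159V tumors. The log2 ratio of WT anti-PD1 over WT IgG was -0.93 (-1.04 to -0.83), just short of 2-fold, and T-like cells had 1.23 to 5.91 CPM. This difference turned with the clusters. In WT IgG and WT anti-PD1, Cfb was 297 and 509 CPM in cluster 1, 249.95 and 289 CPM in cluster 2, 117 and 21.6 CPM in cluster 4, 134 and 97.2 CPM in cluster 5, and 76.8 and 184 CPM in cluster 8. With common cluster weights the ratio was 0.31. A159V IgG over WT IgG was -0.37 and A159V anti-PD1 over A159V IgG was 0.13.

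C3ar1, the receptor for C3a, followed the macrophage-like cells. They held 96.2, 98.0, 94.3 and 95.5% of its UMIs in library order, and their level was 399.8, 529, 433 and 379.5 CPM, against 3.34 to 9.46 CPM in T-like cells. WT anti-PD1 was highest, with a log2 ratio over WT IgG of 0.40 (0.34 to 0.46), while A159V IgG over WT IgG was 0.11 and A159V anti-PD1 over A159V IgG was -0.19. The ratio in WT was 0.03 with common cluster weights and 0.03 in cells without UMIs of another class. Like C1q, C3ar1 was low in cluster 4, at 70.2 to 125 CPM, while clusters 2, 5 and 8 ranged from 530.0 to 698 CPM over all libraries. Unlike C1q, it was highest in cluster 8 in both IgG libraries, at 698 CPM in WT and 683 CPM in A159V, against 537 and 643 CPM in cluster 2.

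C5ar1, the receptor for C5a, was highest in neutrophil-like cells and differed by less than 2-fold between libraries. Its level there was 591 CPM (478 to 724) with IgG and 705 CPM (653 to 760.4) with anti-PD1 in WT tumors, and 561 CPM (459 to 678) with IgG and 557 CPM (478 to 644) with anti-PD1 in A159V tumors. The interval of WT IgG overlapped those of all other libraries, while WT anti-PD1 lay above A159V anti-PD1 with intervals that did not overlap. The log2 ratios were -0.08 (-0.48 to 0.32) for A159V IgG over WT IgG, 0.25 (-0.06 to 0.56) for WT anti-PD1 over WT IgG and -0.01 for A159V anti-PD1 over A159V IgG. Differences within the intervals of these ratios were not detectable at this depth.

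In macrophage-like cells C5ar1 was nearly level across the libraries, at 258, 263, 261 and 278 CPM in library order, with log2 ratios of 0.01 between the IgG libraries (A159V over WT), 0.02 for anti-PD1 over IgG in WT and 0.09 for anti-PD1 over IgG in A159V. T-like cells had 2.25 to 8.87 CPM. Macrophage-like cells held 94.0, 76.5, 89.5 and 92.0% of C5ar1 UMIs. In WT anti-PD1, with 564 neutrophil-like cells, these held 21.2%.

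The other members in neutrophil-like cells rested on few UMIs. C3 was 126 CPM (20 UMIs) with IgG and 257 CPM (245 UMIs) with anti-PD1 in WT tumors, and 132 CPM (25 UMIs) with IgG and 131 CPM (42 UMIs) with anti-PD1 in A159V tumors. Its log2 ratio of 1.02 (0.37 to 1.68) made it the 1 called of 2 members tested for WT anti-PD1 against WT IgG, beside 17.1% of 4853 genes called higher and 19.1% called lower. The summed stromal markers in neutrophil-like cells were 56.6, 1200, 84.6 and 208 CPM in the 4 libraries, and their part in the C3 value was not tested.

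For A159V IgG against WT IgG, 5 of the 7 members tested in neutrophil-like cells were called higher, beside 24% of 5512 genes called higher and 9.2% called lower. These 5 passed the 20 CPM minimum only in A159V IgG, which fixes their direction, so the count is a description and nothing is read from it. C1qa had 9 UMIs against 0. Its counting intervals overlapped, at 21.8 to 90.4 CPM in A159V IgG and 0 to 23.2 CPM in WT IgG. C1qb had 11 UMIs against 1, C1qc had 12 against 2, C3ar1 had 13 against 1 and Cfb had 10 against 3. For A159V anti-PD1 against A159V IgG, C1qa, C1qb, C1qc and C3ar1 were called lower among 7 tested, beside 22.2% of 5515 genes called lower and 8.07% called higher, and these 4 too passed the minimum only through A159V IgG. The summed macrophage markers of the 8 listed moved with these values, at 503, 293, 1465 and 466 CPM in library order, with Ms4a7 at 0 in WT IgG and Ms4a7 and Trem2 at 0 in A159V anti-PD1. In cells without UMIs of another class, 2 members were called in each of these comparisons instead of 5 and 4, and with a gate on marker genes 0 were called in either. The share of all genes called under these settings was not computed. C4b had 0, 2, 0 and 0 UMIs in neutrophil-like cells.

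Tumor-like cells carried little complement. C3 was 11.5 CPM (10.7 to 12.4) in the WT IgG library, and in the A159V libraries it was 4.03 CPM (3.63 to 4.47) with IgG and 5.04 CPM (4.58 to 5.52) with anti-PD1, and Cfb was 9.57, 3.59 and 4.10 CPM in the same order. In T-like cells of these libraries C3 was 4.18, 4.73 and 6.85 CPM and Cfb was 4.18, 5.91 and 4.98 CPM. By CPM both genes were thus above the T-like level in WT IgG and below it in the A159V libraries. The T-like values rested on 8 to 22 UMIs. Tumor-like cells were also far deeper, with medians of 15289 to 43006 UMIs in their clusters, so equal CPM does not mean equal free RNA per cell. Whether C3 and Cfb here exceeded free RNA was not tested. Since no member reached 20 CPM, 0 were tested, beside 1.49% of 6844 genes called higher and 4% called lower in that comparison, and 0.106% of 6574 genes called higher and 0.0304% called lower for A159V anti-PD1 against A159V IgG. The higher level lay in cluster 9, which held 1239 of the 2028 tumor-like cells in WT IgG, 137 of 2806 in A159V IgG and 80 of 2095 in A159V anti-PD1. C3 in cluster 9 was 18.1, 14.8 and 5.70 CPM in these libraries, and in clusters 0 and 3 it was 2.05 to 5.41 CPM. Summed stromal markers in tumor-like cells were 503, 168 and 155 CPM, and their part in these values was not tested.

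**Figure D4:**
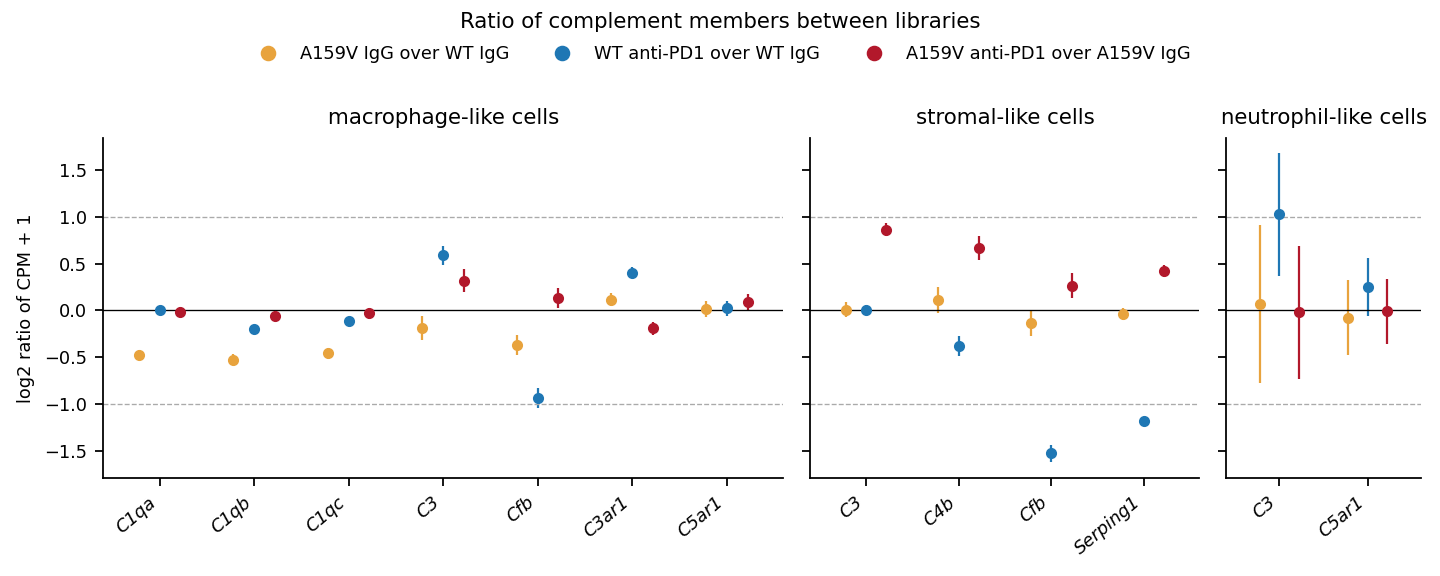
Log2 ratios (pseudocount 1 CPM) for the 3 comparisons (by color) of the members with at least 20 CPM in all 4 libraries of macrophage-like, stromal-like or neutrophil-like cells, with 95% counting intervals and dashed lines at 2-fold. Serping1 and Cfb in stromal-like cells and C3 in neutrophil-like cells, all for WT anti-PD1 over WT IgG, lie past 2-fold, while 0 of 7 members do so in macrophage-like cells.

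The rest of the complement system was sparser. Of 44 other complement genes listed, those at 50 CPM or more in at least 1 profile were 3 of 4 proteases of the classical pathway, 2 of 9 genes of the lectin pathway, 1 of 2 of the alternative pathway, 0 of 8 central and terminal components, 3 of 7 membrane regulators and 6 of 8 receptors. The partners of C1q lay in stromal-like cells, where C1ra, a C1 protease, was 228, 173, 179.9 and 270.2 CPM and C1s1, its substrate protease, was 497, 592, 409 and 749.7 CPM in library order. Neither passed 2-fold.

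The calls among the listed genes in stromal-like cells were few. Cd55, a membrane inhibitor of convertases, was called higher and Csmd1, another membrane regulator, lower of 10 tested for WT anti-PD1 against WT IgG. Of all 6992 genes tested there, 4% were called higher and 5.28% lower. Cd55 was at 342 against 137 CPM and Csmd1 at 61.8 against 309 CPM. For A159V anti-PD1 against A159V IgG, Masp1, a lectin pathway protease, was called higher of 11 tested, at 59.4 against 15.6 CPM. Of all 6951 genes tested there, 2.37% were called higher and 3.25% lower. For A159V IgG against WT IgG, 0 of 11 were called, and 0 of 8 were called in macrophage-like cells in that comparison or for A159V anti-PD1 against A159V IgG. The shares of all genes called in these comparisons are given above. In macrophage-like cells of WT anti-PD1 against WT IgG, where 9 were tested, Cfp, which encodes the stabilizer properdin, was called higher, at 302 against 141 CPM. Of all 6418 genes tested there, 7.59% were called higher and 6.53% lower. In neutrophil-like cells 0 of 7 were called lower in the 3 comparisons. Those called higher were Itgax for A159V IgG against WT IgG, C5ar2, Itgax and Cfp for WT anti-PD1 against WT IgG and Cd93 for A159V anti-PD1 against A159V IgG. Of all genes tested, 24, 17.1 and 8.07% were called higher and 9.2, 19.1 and 22.2% lower in these comparisons, in the same order. Nothing is read from these counts. In tumor-like cells, Clu, a terminal-pathway inhibitor named here after its values were seen, was the 1 gene called lower of 3 tested for A159V IgG against WT IgG. Of all 6844 genes tested there, 4% were called lower and 1.49% higher.

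The members fell into 2 main profiles over the 29 class-by-library profiles of at least 50 cells. On log2(CPM + 1) values, Pearson's r was 0.958 between C1qa and C1qb and 0.973 between C1qc and C3ar1, while it was 0.945 between C4b and Serping1 and 0.842 between C3 and Cfb. The non-member genes most like summed C1q were Tmem104 (0.944), Ms4a7 (0.927), Ccl9 (0.914), Ms4a8a (0.914) and Msr1 (0.913). C3ar1 shared 3 of these, with Msr1, the macrophage scavenger receptor, at 0.943, followed by Ms4a8a and Ms4a7. Serping1 was most like Lama2 (0.986), Sulf1 and Cygb, and C4b was most like Podn (0.961), Colec12 and Akr1c18. C3 and Cfb were both most like Lrp1, at 0.936 and 0.921, with Gsn and Fam114a1 next for C3 and Cd302 and Il6 next for Cfb. C5ar1 was most like F10 (0.967), Csf3r, the receptor for the neutrophil growth factor G-CSF, and Fpr2. Profiles of 1 library share their depth and free RNA, and these correlations among 8168 genes describe the classes rather than independent samples.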

How the data were processed

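Single-cell 3′ libraries (10x Genomics) were measured from MC38 tumors, 1 library per group. The deposited values are UMI counts per gene and cell barcode, which the authors made with Cell Ranger (7.2.0 in the file header, 5.0.1 in the submitters' processing notes) on mm10 with introns included. The study's later removal of background RNA and doublets is not in these counts. Here, cells with more than 500 genes were kept, and doublets were predicted per library by simulated neighbors at an expected rate of 0.8% per 1000 cells and left out (374 to 631 cells). The 4 libraries were clustered together (scanpy 1.11.5, leidenalg 0.10.2, 2000 variable genes without the complement genes, 20 components, 20 neighbors, resolution 1), and clusters were named from marker lists.

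UMIs were summed per class and library and expressed as CPM, with exact intervals from the Poisson distribution. Log2 ratios used a pseudocount of 1 CPM and delta-method intervals. Median depth of analyzed cells was 3336 to 4173 UMIs per cell, and all intervals cover counting error only. All members are named; other complement genes are named from a list where they reached 50 CPM in 1 profile, and likeness names the 5 genes closest to summed C1q and the 3 closest to each other member. Scripts were tested on simulated data. The rule for members uses symbols and no levels, but the gene set and the lists were chosen with earlier results of these data known. The alternatives tried are given in the closing section. Gene positions came from GENCODE M21, which held 32158 of 32285 gene IDs, and upstream sequences from RefSeq, where 5 of 9 members had an entry. Some results on the other listed complement genes are not reported here.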

Additional observations from a re-analysis of the deposited data

Results flagged for a closer look

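Of the member values with at least 20 UMIs in each library, 4 had anti-PD1 over IgG differences of opposite direction in WT and A159V tumors that lay at least 1 apart on the log2 scale, each with a counting interval clear of 0. With 1 library per arm, none of these differences was tested. Cfb in macrophage-like cells was -0.93 on the log2 scale in WT and 0.13 in A159V, a difference of -1.07. C4b in stromal-like cells was -0.38 in WT and 0.66 in A159V, a difference of -1.04. Cfb in stromal-like cells was -1.53 and 0.26, a difference of -1.79, and Serping1 in stromal-like cells was -1.18 and 0.42, a difference of -1.61. In WT, the direction turned for Cfb in macrophage-like cells with common cluster weights (0.31), and for Cfb (1.19) and Serping1 (1.98) in stromal-like cells with each library clustered on its own. In A159V, the stromal-like differences were small within cluster 11. There IgG and anti-PD1 had 2613 and 2614 CPM of Serping1, 757 and 787 CPM of C4b, and 524 and 570 CPM of Cfb. In cluster 15, with 28 cells in A159V anti-PD1, these pairs were 1328 and 2198, 173 and 211, and 425 and 531 CPM.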

How the results depend on the processing

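Over 16 alternatives, 451 of 501 recomputed member log2 ratios kept their sign and 482 kept their side of 2-fold; among the 8 ratios of at least 0.5 in size, 99 of 103 kept their sign. With each library clustered on its own, Cfb (1.19) and Serping1 (1.98) in stromal-like cells of WT anti-PD1 over WT IgG reversed. The gate on marker genes gave 0.47 for Serping1. Both settings put tumor-like cells of WT IgG into the stromal-like class, and the part of these cells in the ratios was not tested. Summed C1q in macrophage-like cells, A159V IgG over WT IgG, was -0.38 with more than 1000 genes per cell, -0.54 with each library clustered alone, -0.41 with the gate, -0.45 in cells without UMIs of another class, -0.23 with each cell weighing the same and 0.0035 with common cluster weights. For WT anti-PD1 over WT IgG it was -0.15 with more than 1000 genes, -0.037 with at most 10% mitochondrial UMIs, -0.13 at resolution 2, -0.20 with each library clustered alone, -0.24 with the gate, 0.14 with each cell weighing the same and -0.52 with common cluster weights. For A159V anti-PD1 over A159V IgG it was -0.13 with more than 1000 genes, 0.025 with each library clustered alone, -0.10 with the gate, -0.15 without UMIs of another class, -0.29 with each cell weighing the same and -0.16 with common cluster weights.

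Counts of members past 2-fold moved as follows. For A159V IgG over WT IgG, the stromal-like count of 0 became 4 with each library clustered alone and 4 with the gate, the tumor-like count of 0 became 2 without the filter on low values, and the neutrophil-like count of 5 became 0 with the gate and 2 in cells without UMIs of another class. For WT anti-PD1 over WT IgG, the macrophage-like count of 0 became 1 with common cluster weights and 1 without the filter. The stromal-like count of 2 became 4 with each library clustered alone, 1 without clusters over 80% from 1 library and 7 without the filter. The neutrophil-like count of 1 became 2 with predicted doublets kept, 6 with the gate and 6 without the filter. For A159V anti-PD1 over A159V IgG, the stromal-like count of 0 became 1 without the filter, and the neutrophil-like count of 4 became 2 with doublets kept, 0 with the gate and 2 without UMIs of another class. The causes of these moves were not tested. The share of all genes called was not computed for the alternatives, so nothing about the members is read from these counts. Neutrophil-like cells could not be compared with more than 1000 genes per cell, since fewer than 50 remained. The shares of macrophage-like cells with a C1q UMI at 1000 UMIs were 33.4, 57.3, 34.8 and 30.8% in the order of libraries used above. No paired analysis was possible because each group was 1 library and no test was run. With 95 to 217 neutrophil-like cells in 3 of the libraries, depth limits every member there other than C5ar1 and C3.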
